A study of Mus musculus with 8 samples.

Results

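The hypoxia and glycolysis genes are a set of 44 mouse genes that encode the hypoxia-inducible factor (HIF) subunits, the enzymes that sense oxygen, the glucose transporters and glycolytic enzymes, the enzymes and carriers of pyruvate and lactate, and 5 further HIF targets. They were chosen by name, from a list of 44 symbols, out of 21627 protein-coding genes on chromosomes 1 to 19 and X. Chromatin accessibility was measured at them by ATAC-seq, a method that counts where a transposase can reach and cut DNA, which happens in open chromatin. Peaks of 8 libraries were merged into 90736 regions where they overlapped by at least 1 bp. Of these, 79474 were assigned to a protein-coding gene, by the gene span that holds the midpoint of the region or otherwise by the nearest span within 50 kb. The 44 genes received 218 regions. At the 50 kb limit, the farthest region inside it lay 49.8 kb from Hk2 and was called in 8 libraries, with a mean fold enrichment of 4.87. The nearest region outside it lay 52.8 kb from Egln3 and was called in 5 libraries, with a mean fold enrichment of 4.82.

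The libraries came from haematopoietic stem cells (HSC) sorted from the bone marrow of Vav1-cre iMOS Bcl11a mice, in a study of what the transcription factor Bcl11a does within HSC and of what its overexpression does to wild-type HSC. The 4 groups, with 2 libraries each, were MUT T1, MUT T2, WT T1 and WT T2. MUT and WT are the labelled iMOS Bcl11a genotypes, and T1 and T2 are the labelled sorted populations. All mice were given as 2 to 3 months old in 1 label and as 3 months old in the description of the design, and all carried Vav1-cre, a recombinase driven in blood cells, and an iMOS Bcl11a construct. The labels do not say how T1 and T2 differ, nor which population carries an active construct. Nothing in the labels says that the 2 libraries of a group came from separate animals, so the spread between them may be technical. Each library was made from 5000 nuclei, treated with transposase for 30 min at 37 °C. In a bulk measurement of this kind, fewer cells with an open region and a less open region in each cell cannot be told apart.

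The lists held 62232 to 74785 peaks on the chromosomes used. The background of the genome, a measure of relative depth recovered from the deposited peak values, was 3.38 and 2.03 fragments per position in T1 and 3.21 and 3.10 in T2 of MUT mice, against 3.24 and 3.29 in T1 and 2.45 and 1.89 in T2 of WT mice. The 3 shallowest libraries, which stood apart from the other 5, were thus replicate 2 of MUT T1 and both of WT T2. Of 10 HSC marker genes, 9 (all but Ly6a) had a region at a gene end that was called in all 8 libraries, against 2 of 12 marker genes of other cells. Over all protein-coding genes the share was 57.6%. The T cell and neutrophil markers Cd3e, Cd8a, Elane, S100a8 and Ly6g, and Rag1 of early lymphocytes, had no such region. Counted over all their regions the order was reversed. All 8 libraries called 70 of 163 regions (42.9%) at HSC markers and 13 of 23 (56.5%) at markers of other cells.

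HIF is a pair of an oxygen-regulated alpha subunit and a stable beta subunit. With oxygen present, prolyl hydroxylases of the EGLN family mark the alpha subunit, the VHL protein binds it and it is degraded. When oxygen is low the alpha subunit lasts, and the pair binds a short DNA core in the promoters and enhancers of genes for glucose uptake, glycolysis, lactate export and blood vessel growth. HSC are known to sit in a marrow of low oxygen and to rely on glycolysis, with HIF-1 alpha and the pyruvate dehydrogenase kinases among the genes studied there.

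The DNA just upstream of the start is shown for 8 members, 1 or more from each role, because these start regions are open in all 8 libraries and carry the core that HIF binds. Each sequence holds the 250 bases before the RefSeq start site (build GRCm38.p6, the same build as mm10), 5′ to 3′ on the strand of the gene. Capitals mark the HIF core ACGTG or GCGTG, which reads CACGT or CACGC when it lies on the other strand. A CACGTG holds 2 overlapping cores, 1 on each strand.
Hif1a (chr12:73907617-73907866, plus strand): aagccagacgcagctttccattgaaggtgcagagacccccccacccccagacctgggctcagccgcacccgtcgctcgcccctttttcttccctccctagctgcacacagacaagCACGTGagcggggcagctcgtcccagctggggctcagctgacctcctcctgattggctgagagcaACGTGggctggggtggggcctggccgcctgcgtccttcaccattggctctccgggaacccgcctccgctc
Slc2a1 (chr4:119108495-119108744, plus strand): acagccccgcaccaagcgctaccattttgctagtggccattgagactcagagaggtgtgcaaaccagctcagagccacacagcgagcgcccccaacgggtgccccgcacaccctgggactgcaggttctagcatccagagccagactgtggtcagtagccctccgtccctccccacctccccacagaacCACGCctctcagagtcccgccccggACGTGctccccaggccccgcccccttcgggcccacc
Hk2 (chr6:82774455-82774704, minus strand): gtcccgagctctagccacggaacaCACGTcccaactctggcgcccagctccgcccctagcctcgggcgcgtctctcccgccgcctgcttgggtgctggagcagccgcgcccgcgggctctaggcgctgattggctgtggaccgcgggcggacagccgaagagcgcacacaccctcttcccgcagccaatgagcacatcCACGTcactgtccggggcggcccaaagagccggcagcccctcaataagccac
Pgk1 (chrX:106186850-106187099, plus strand): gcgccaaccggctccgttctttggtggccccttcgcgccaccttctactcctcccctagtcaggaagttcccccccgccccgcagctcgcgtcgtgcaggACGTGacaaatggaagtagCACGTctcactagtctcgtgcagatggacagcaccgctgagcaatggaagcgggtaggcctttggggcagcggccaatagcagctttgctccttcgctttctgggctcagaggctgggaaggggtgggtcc
Ldha (chr7:46845554-46845803, plus strand): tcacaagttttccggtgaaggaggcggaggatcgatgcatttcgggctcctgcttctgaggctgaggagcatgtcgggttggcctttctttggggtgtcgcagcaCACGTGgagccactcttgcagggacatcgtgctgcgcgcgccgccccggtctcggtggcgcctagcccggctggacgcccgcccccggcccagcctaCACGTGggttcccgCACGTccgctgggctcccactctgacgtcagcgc
Pdk1 (chr2:71872974-71873223, plus strand): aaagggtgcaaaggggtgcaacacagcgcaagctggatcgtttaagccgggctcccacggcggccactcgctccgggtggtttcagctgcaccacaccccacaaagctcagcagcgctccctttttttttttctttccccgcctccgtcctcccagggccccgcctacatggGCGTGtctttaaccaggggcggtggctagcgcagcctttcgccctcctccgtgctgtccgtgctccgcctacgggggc
Slc16a1 (chr3:104638414-104638663, plus strand): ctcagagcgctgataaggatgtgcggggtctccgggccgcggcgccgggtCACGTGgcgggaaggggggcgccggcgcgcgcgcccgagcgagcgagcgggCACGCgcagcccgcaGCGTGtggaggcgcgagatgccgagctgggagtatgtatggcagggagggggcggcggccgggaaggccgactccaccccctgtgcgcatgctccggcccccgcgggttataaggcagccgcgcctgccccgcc
Bnip3 (chr7:138909507-138909756, minus strand): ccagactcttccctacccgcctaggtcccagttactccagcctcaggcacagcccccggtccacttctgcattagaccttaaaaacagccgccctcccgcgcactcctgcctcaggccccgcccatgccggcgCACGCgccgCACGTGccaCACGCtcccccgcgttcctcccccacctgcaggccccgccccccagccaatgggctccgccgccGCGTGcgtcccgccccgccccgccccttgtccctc

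The number of cores before the start differed between these members. Bnip3 and Ldha held 5 each, Slc16a1 held 4 and Hif1a held 3. Slc2a1, Hk2 and Pgk1 held 2 each, and Pdk1 held 1. CACGTG stood in the sequences of Hif1a, Ldha, Slc16a1 and Bnip3, and it stood at 2 places in that of Ldha.

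RefSeq start windows, which run from 250 bases before to 50 bases after a start, were found for 41 of the 44 genes (all but Epas1, Slc2a3 and Bnip3l), 57 windows in all. A HIF core on either strand was present in 43 of the 57 windows (75.4%), against 49.8% of all 21044 windows. Among windows inside a region called in all 8 libraries the share was 35 of 43 (81.4%), against 64.5% for all genes. Among the other windows it was 8 of 14 (57.1%), against 26.7%. The member set was chosen partly for HIF targets, so these shares are given as a description only. The source of the higher share than in all genes was not tested. The window of Ldha, the enzyme that turns pyruvate into lactate, held 7 cores, the most among the members, and the window of Egln2 held 6. The 8 windows inside a region called in all 8 libraries that held no core belonged to Arnt2, Vhl, Hif1an, Gpi1, Tpi1, Eno2, Vegfa and 1 start of Pdk2. A match is a run of letters and not a measured binding site.

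Most of these genes had a start that was open in every library. Of the 44 genes, 35 (79.5%) had a gene-end region, one within 1 kb of either end of the gene span, that was called in all 8 libraries, against 57.6% of all protein-coding genes. Among the 41 genes with a start window, 36 (87.8%) had a window inside a region called in all 8 libraries, against 63.2% of genes in the RefSeq table. The 5 exceptions were Hif3a, a HIF alpha subunit of restricted expression, Pklr, the pyruvate kinase of liver and red cells, Eno3, the muscle enolase, Car9, a carbonic anhydrase induced in tumour hypoxia, and Hk3, a hexokinase of myeloid cells. The start window of Hk3 lay in a region called in 6 libraries, and those of the other 4 lay in no region. Several genes had more than 1 start, and of 12 such members 7 had 1 start in a region called in all 8 libraries and another in no region (Aldoa, Aldoc, Egln2, Hk1, Pdk1, Pfkm and Vegfa). In 7 genes (Hif1a, Ldha, Hk1, Arnt2, Pfkfb4, Pfkm and Pfkfb3) a region that holds a start window counted as distal, because it lies more than 1 kb inside the span of the gene.

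**Figure D1:**
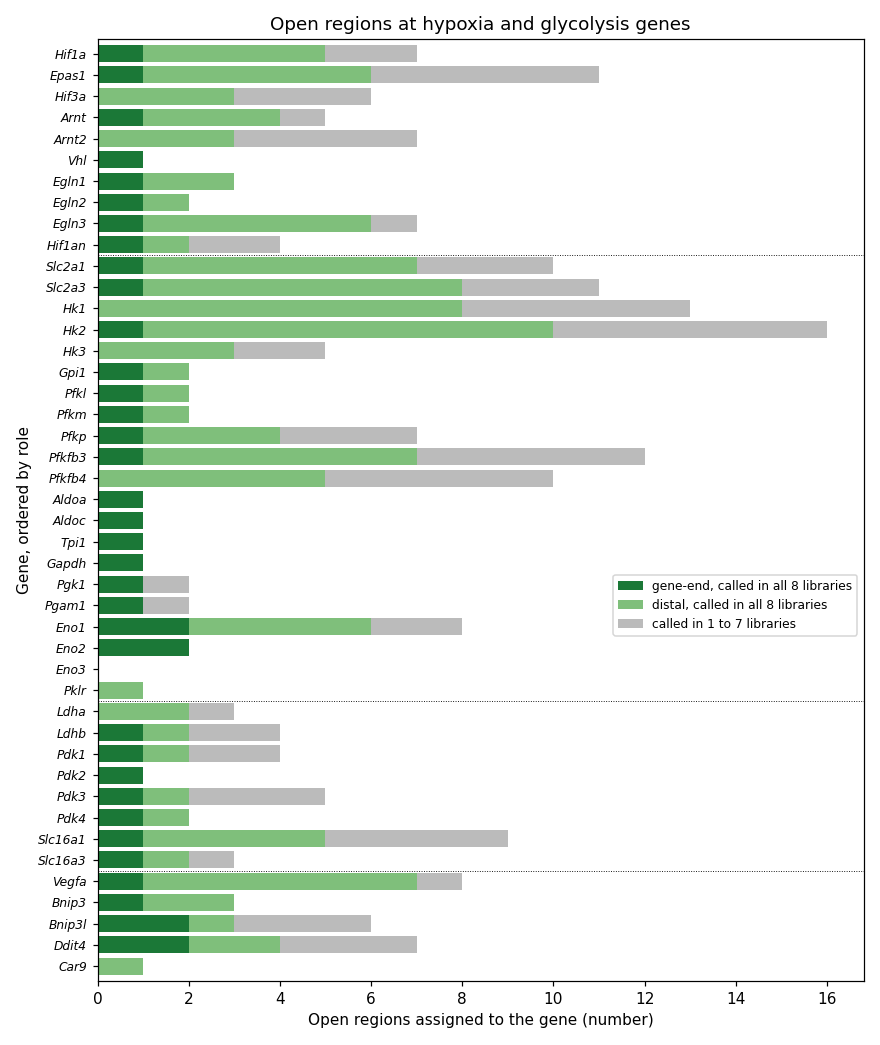
Number of merged open regions assigned to each of the 44 genes (horizontal axis, count), in the order of their roles with dotted lines between the 4 role groups. Bars are divided into gene-end regions called in all 8 libraries, distal regions called in all 8 and regions called in 1 to 7 libraries, and Hk2 has the longest bar with 16 regions while Eno3 has none.

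Regions were many at some members and few at others. A member had a median of 4 regions, against 2 over all genes, and 43 of 44 had at least 1. Hk2, the hexokinase that HIF induces, had 16 regions, Hk1 13, Pfkfb3, which makes the allosteric activator of phosphofructokinase, 12, and Epas1, which encodes HIF-2 alpha, and Slc2a3, which encodes a neuronal and leukocyte glucose transporter, 11 each. Slc2a1, which encodes the main glucose transporter of blood cells, and Pfkfb4 had 10 each. At the other end, 8 genes had a single region: Vhl, Aldoa, Aldoc, Tpi1, Gapdh, Pklr, Pdk2 and Car9. Eno3 had none, since the region at the end of its span was assigned to Pfn1. At Aldoc, Tpi1 and Pklr a region assigned to a neighbour (Pigs, Spsb2 and Hcn3) also lay within 1 kb of an end of the member's span.

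Of the 218 regions, 144 (66.1%) were called in all 8 libraries, against 56.1% of all regions at protein-coding genes, and 12 (5.5%) in a single library, against 11.2%. At gene ends the share called in all 8 was 39 of 44 (88.6%), against 84.9% for all genes. Away from gene ends it was 105 of 174 (60.3%), against 48.8%. Of the distal regions, 93 of 174 (53.4%) lay inside the span of their gene, against 64.4%. All regions were called in all 8 libraries for 16 of the 43 genes with a region. Gene-end regions called in all 8 libraries had a median width of 1347 bp and distal ones of 806 bp, against 1258 bp and 842 bp over all genes.

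By role, the 10 genes of HIF and oxygen sensing had 53 regions, and 8 of their 9 gene-end regions and 27 of their 44 distal regions were called in all 8 libraries. The 21 genes of glucose uptake and glycolysis had 109 regions, with 18 of 21 at gene ends and 55 of 88 away from them called in all 8. The 8 genes of lactate and pyruvate had 31 regions, with 7 of 8 and 11 of 23. The 5 other HIF targets had 25 regions, with 6 of 6 and 12 of 19. Over all genes the shares called in all 8 libraries were 84.9% at gene ends and 48.8% away from them. Among the 4 roles the lactate and pyruvate genes had the smallest distal share, which was near that of all genes. No result about this role is read from it.

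Of the 218 regions, the MUT libraries called 192 and 159 in T1 and 190 and 181 in T2, and the WT libraries called 177 and 187 in T1 and 176 and 171 in T2. The means were 175.5 ± 23.3 in T1 and 185.5 ± 6.36 in T2 of MUT mice, against 182 ± 7.07 in T1 and 173.5 ± 3.54 in T2 of WT mice (SD, n = 2 each). All MUT libraries averaged 180.5 ± 15.1 and all WT libraries 177.75 ± 6.70 (SD, n = 4 each), and the ranges overlapped. All T1 libraries averaged 178.75 ± 14.6 and all T2 libraries 179.5 ± 8.10 (SD, n = 4 each), and these ranges overlapped too. The 3 shallowest libraries had the 3 lowest counts, and the lowest of all was that of MUT T1 replicate 2. Gene-end regions varied little, with 39 to 42 called in each library, while distal ones ran from 120 to 150.

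Heights were given by the authors' peak caller as a fold enrichment for each peak, which divides the summit by the background around it. It is the authors' own value for a peak and serves here as a description. Where a library had several peaks in a region, the highest was taken. Over the 144 regions called in all 8 libraries the mean fold enrichment ran from 2.73 to 14.8 with a median of 7.04, against a median of 7.66 over all genes. The 74 regions not called in all 8 had a median of 4.24, against 4.59.

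Gene-end and distal regions compared differently on the local and on the genome scale. The median fold enrichment over local background at gene ends was 6.16 and 7.80 in T1 and 6.59 and 6.80 in T2 of MUT mice, against 6.59 and 6.81 in T1 and 7.61 and 8.09 in T2 of WT mice. At distal regions it was 6.75 and 7.17 in T1 and 7.61 and 6.93 in T2 of MUT mice, against 6.54 and 6.69 in T1 and 7.69 and 8.03 in T2 of WT mice. Over all genes the gene-end median was the higher of the pair in every library. At the members it was the higher in 4 libraries and the lower in 4. When the summit pileup was instead divided by the background of the whole genome, gene ends stood at 32.8 and 47.7 in T1 and 38.0 and 35.1 in T2 of MUT mice, against 35.5 and 38.6 in T1 and 48.2 and 51.2 in T2 of WT mice. Distal regions stood at 18.3 and 24.1 in T1 and 21.5 and 20.3 in T2 of MUT mice, against 21.0 and 21.6 in T1 and 23.7 and 26.4 in T2 of WT mice. On this scale gene ends were 1.69 to 2.03 times as high as distal regions in every library, against 2.02 to 2.33 times over all genes. On both scales the 3 shallowest libraries had the 3 highest gene-end medians.

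**Figure D2:**
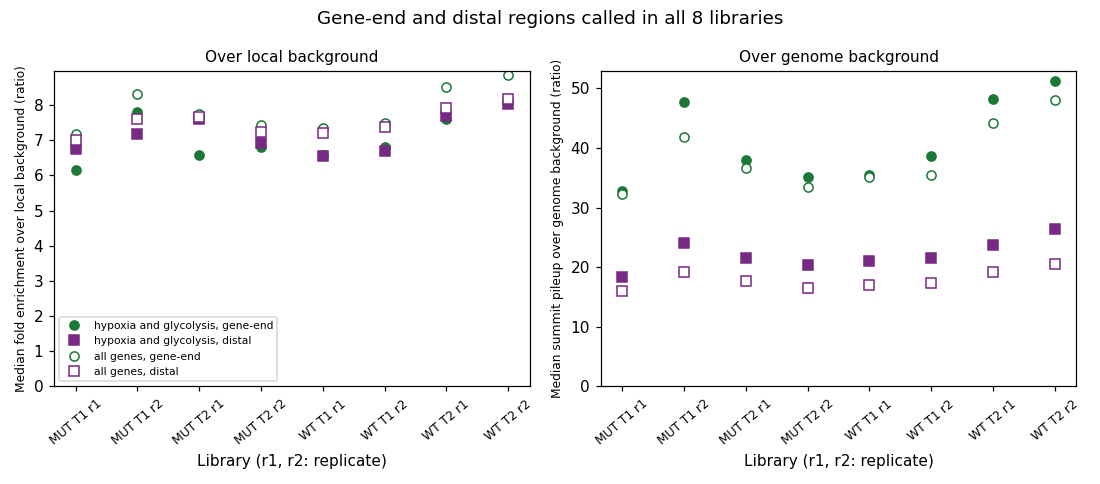
Median over regions called in all 8 libraries, by library (horizontal axis), of the fold enrichment over local background (left, ratio) and of the summit pileup over the genome background (right, ratio). Filled symbols are the hypoxia and glycolysis genes and open symbols all genes, with circles for gene-end and squares for distal regions; on the right every circle of the members lies above their square, at 32.8 to 51.2 against 18.3 to 26.4.

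Summits were measured from the RefSeq starts. Where a gene had several starts in open regions, the start nearest the summit was taken, which favours short distances. For the 36 genes with a start in a region called in all 8 libraries, the median position of the summit over libraries ran from -359 bp (upstream) at Pdk4 to 249 bp (downstream) at Eno2. It was within 250 bp of the start in 31 of them, and of all 36 medians 17 lay upstream and 19 downstream. When every start of these genes was counted, 33 of 43 had the summit within 250 bp, and the positions ran from -1201 bp at a second Ldha start to 532 bp at the inner Pfkfb3 start. At Hif1a the median summit stood 31 bp downstream, at Ldha 77 bp downstream and at Pdk1 74 bp downstream of the start. At Slc16a1, which encodes the lactate carrier MCT1, it stood at -42.5 bp, and at Bnip3, which encodes a mitophagy receptor, at -272 bp. At Aldoa, the aldolase of muscle and most other cells, single libraries ran from -420 to 223 bp, the widest spread of the summits described here. The summit stood at -360 and -357 bp in T1 and -420 and -331 bp in T2 of MUT mice. In WT mice it stood at 223 and 156 bp in T1 and 200 and 1 bp in T2. All MUT summits at Aldoa thus lay upstream and all WT summits downstream of the start, and this difference was not tested.

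**Figure D3:**
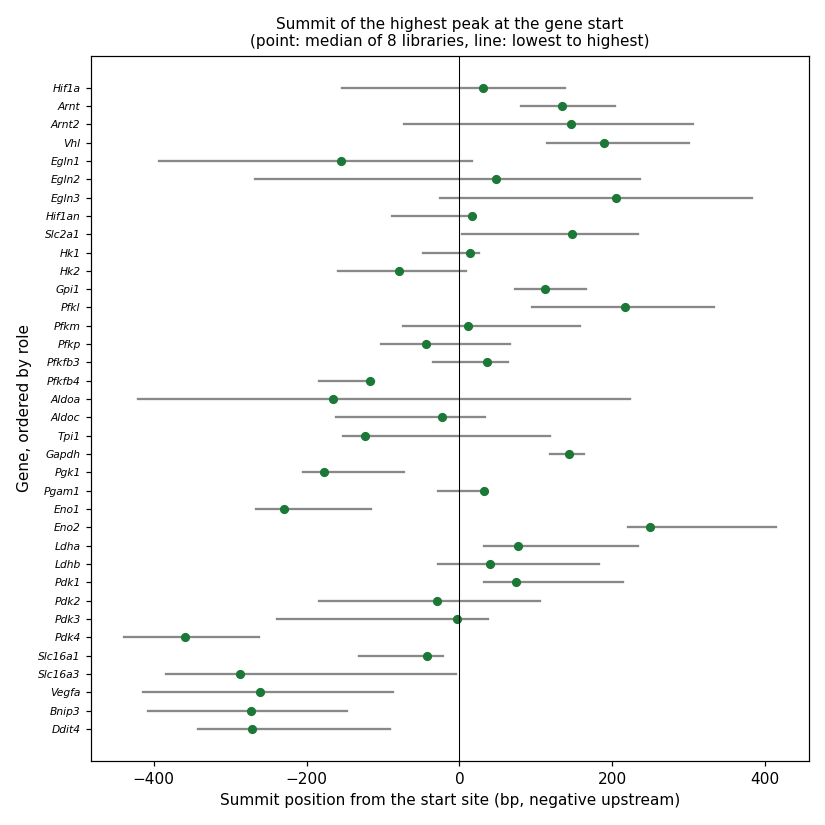
Position of the highest peak summit relative to the RefSeq start site (horizontal axis, bp, negative upstream) for 36 genes in the order of their roles, with the start nearest the summit taken where a gene had several. Points are medians over 8 libraries and lines run from the lowest to the highest library; medians run from -359 bp at Pdk4 to 249 bp at Eno2.

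Among the HIF subunits and oxygen sensors, the start region of Hif1a, the alpha subunit of HIF-1, lay at chr12:73907263-73908943 and had fold enrichments of 6.75 and 8.54 in T1 and 7.88 and 6.47 in T2 of MUT mice, against 6.61 and 6.77 in T1 and 7.98 and 8.79 in T2 of WT mice. Every group held a value within the range of the other genotype. Epas1 had 6.13 and 5.51 in T1 and 4.75 and 5.44 in T2 of MUT mice, against 5.26 and 6.82 in T1 and 6.12 and 5.40 in T2 of WT mice at chr17:86752902-86755609. The genotypes overlapped, and so did the populations. Vhl, whose product marks HIF alpha for degradation, had 9.03 and 10.1 in T1 and 8.45 and 7.92 in T2 of MUT mice, against 8.48 and 8.48 in T1 and 11.1 and 10.4 in T2 of WT mice at chr6:113623582-113625119. The highest values at Vhl were those of the 3 shallowest libraries.

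The oxygen sensor genes Egln1 and Egln3 encode the prolyl hydroxylases PHD2 and PHD3. The start region of Egln1 (chr8:124947813-124950242) had 5.63 and 7.20 in T1 and 5.95 and 5.82 in T2 of MUT mice, against 4.80 and 5.41 in T1 and 7.23 and 7.45 in T2 of WT mice. MUT T1 lay above WT T1, while MUT T2 lay below WT T2. That of Egln3 (chr12:54202267-54204143) had 6.04 and 7.08 in T1 and 6.36 and 7.14 in T2 of MUT mice, against 6.84 and 5.17 in T1 and 6.77 and 7.63 in T2 of WT mice. Both genotypes and both populations overlapped there. Hif1an encodes the asparagine hydroxylase that blocks HIF transcriptional activity. Its start region (chr19:44562458-44563332) had the highest mean fold enrichment of the member gene-end regions called in all 8 libraries. The values were 12.2 and 13.4 in T1 and 12.9 and 12.8 in T2 of MUT mice, against 12.2 and 11.9 in T1 and 14.9 and 12.7 in T2 of WT mice.

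Of the glucose transporters, Slc2a1 had 7.82 and 6.94 in T1 and 6.59 and 7.35 in T2 of MUT mice, against 6.92 and 7.0 in T1 and 7.29 and 8.41 in T2 of WT mice at its start (chr4:119108314-119109549). Slc2a3 had 6.16 and 7.77 in T1 and 7.68 and 5.98 in T2 of MUT mice, against 5.73 and 6.28 in T1 and 7.48 and 8.97 in T2 of WT mice (chr6:122801017-122802443). At both transporters WT T2 replicate 2 was the highest library, and the genotypes overlapped. The hexokinases trap glucose in the cell as glucose 6-phosphate. The start region of Hk1 (chr10:62338990-62341005) had 5.31 and 6.09 in T1 and 5.92 and 5.40 in T2 of MUT mice, against 4.57 and 6.04 in T1 and 5.53 and 6.12 in T2 of WT mice. That of Hk2 (chr6:82772955-82775052) had 5.11 and 6.69 in T1 and 5.71 and 4.88 in T2 of MUT mice, against 5.48 and 5.03 in T1 and 7.34 and 6.97 in T2 of WT mice. Its 3 highest values came from the 3 shallowest libraries.

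At the phosphofructokinase step, Pfkl, the liver-type subunit of the enzyme, had 9.49 and 8.97 in T1 and 9.40 and 9.06 in T2 of MUT mice, against 8.81 and 10.6 in T1 and 8.86 and 11.2 in T2 of WT mice at its start (chr10:78008937-78010602). The MUT values lay within the range of the WT values. A distal region 9293 bp from Pfkl (chr10:78018628-78019572) had the highest mean fold enrichment of all member regions, with 14.4 and 16.6 in T1 and 14.6 and 12.6 in T2 of MUT mice, against 11.7 and 14.8 in T1 and 15.1 and 18.4 in T2 of WT mice. Pfkfb3 had an open region at each of 2 starts. The upstream one (chr2:11552632-11554473) had 7.71 and 8.30 in T1 and 7.47 and 7.51 in T2 of MUT mice, against 7.92 and 6.26 in T1 and 8.66 and 8.65 in T2 of WT mice. The inner one (chr2:11500856-11502592) had 6.0 and 6.35 in T1 and 5.88 and 5.62 in T2 of MUT mice, against 5.25 and 5.44 in T1 and 6.53 and 6.76 in T2 of WT mice. In every library the upstream start of Pfkfb3 had the higher fold enrichment of the pair. By summit height over the genome background the order differed between libraries. The upstream start had 45.2 and the inner start 48.8 in MUT T1 replicate 1, against 68.1 and 60.2 in WT T2 replicate 2.

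Further down the pathway, Aldoa had 5.20 and 5.44 in T1 and 4.94 and 4.92 in T2 of MUT mice, against 4.82 and 4.53 in T1 and 4.70 and 5.28 in T2 of WT mice (chr7:126798548-126800262), a narrow range. Pgk1, which makes the first ATP of glycolysis, had 5.82 and 8.84 in T1 and 5.47 and 8.20 in T2 of MUT mice, against 7.90 and 9.0 in T1 and 9.51 and 9.32 in T2 of WT mice (chrX:106186581-106187489). Both MUT groups held 1 low and 1 high library at Pgk1, with replicate 1 the low one in each, and the genotypes overlapped. Its summit height over the genome background was 18.0 and 44.7 in T1 and 18.7 and 35.1 in T2 of MUT mice. In WT mice it was 35.5 and 40.1 in T1 and 47.4 and 52.2 in T2. The source of the 2 low values was not tested. The lowest gene-end regions called in all 8 libraries included those of 2 further glycolytic enzymes. The region at Gapdh (chr6:125164443-125167499) spanned 3057 bp and averaged 4.76, with 4.45 and 5.48 in T1 and 4.75 and 4.42 in T2 of MUT mice, against 4.27 and 4.75 in T1 and 4.85 and 5.11 in T2 of WT mice. The region at Tpi1, the triose phosphate isomerase (chr6:124813400-124814676), averaged 4.64, with 4.16 and 4.83 in T1 and 4.72 and 5.53 in T2 of MUT mice, against 4.19 and 3.90 in T1 and 4.55 and 5.21 in T2 of WT mice. The genotypes overlapped at both genes.

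Among the lactate and pyruvate genes, Ldha had 6.16 and 7.28 in T1 and 6.48 and 5.71 in T2 of MUT mice, against 5.97 and 6.20 in T1 and 6.04 and 6.76 in T2 of WT mice at its start (chr7:46845280-46847262). Pdk1 encodes the kinase that shuts pyruvate out of the mitochondrial oxidation path, and its start region (chr2:71872718-71874397) had 6.99 and 8.38 in T1 and 7.35 and 7.61 in T2 of MUT mice, against 6.97 and 6.97 in T1 and 9.68 and 9.94 in T2 of WT mice. Both MUT T2 libraries lay below both WT T2 libraries, while MUT T1 replicate 1 differed little from WT T1. Slc16a1 had 6.23 and 8.14 in T1 and 6.59 and 6.50 in T2 of MUT mice, against 6.03 and 6.24 in T1 and 7.41 and 7.16 in T2 of WT mice (chr3:104637773-104639775). At both genes the 3 highest libraries were the 3 shallowest, and the part of depth in these differences was not tested. A distal region 42557 bp from Slc16a1 (chr3:104700790-104701248) had the second highest mean of all member regions, with 10.4 and 12.6 in T1 and 14.2 and 14.2 in T2 of MUT mice, against 12.1 and 12.4 in T1 and 14.3 and 14.8 in T2 of WT mice.

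Of the other HIF targets, Vegfa, the vascular growth factor, had 6.31 and 4.84 in T1 and 5.48 and 5.36 in T2 of MUT mice, against 5.31 and 5.41 in T1 and 5.06 and 5.62 in T2 of WT mice at its start (chr17:46030570-46033263), so that MUT T1 held both the highest and the lowest library. Bnip3 had 6.31 and 9.11 in T1 and 7.34 and 7.23 in T2 of MUT mice, against 8.12 and 7.66 in T1 and 8.35 and 8.36 in T2 of WT mice (chr7:138908966-138910375). Bnip3l, its paralogue that clears mitochondria from maturing red cells, had a region at each end of its span. The one at chr14:67008064-67009424 had 6.10 and 8.17 in T1 and 6.99 and 6.80 in T2 of MUT mice, against 7.16 and 8.06 in T1 and 7.79 and 8.60 in T2 of WT mice. The other, at chr14:66983681-66984522, had 5.51 and 6.92 in T1 and 5.93 and 4.87 in T2 of MUT mice, against 6.32 and 8.34 in T1 and 6.97 and 6.16 in T2 of WT mice. The genotypes overlapped at all 4 of these regions. Ddit4 encodes REDD1, an inhibitor of mTORC1 induced by hypoxia. It had 4.77 and 5.92 in T1 and 4.96 and 5.22 in T2 of MUT mice, against 4.46 and 4.83 in T1 and 5.68 and 5.93 in T2 of WT mice at its start (chr10:59951452-59952735). A second region at Ddit4 (chr10:59950602-59951231) had the lowest mean fold enrichment, 3.76, of the member gene-end regions called in all 8 libraries. It had 3.95 and 4.27 in T1 and 3.40 and 3.94 in T2 of MUT mice, against 4.07 and 3.11 in T1 and 3.63 and 3.73 in T2 of WT mice.

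**Figure D4:**
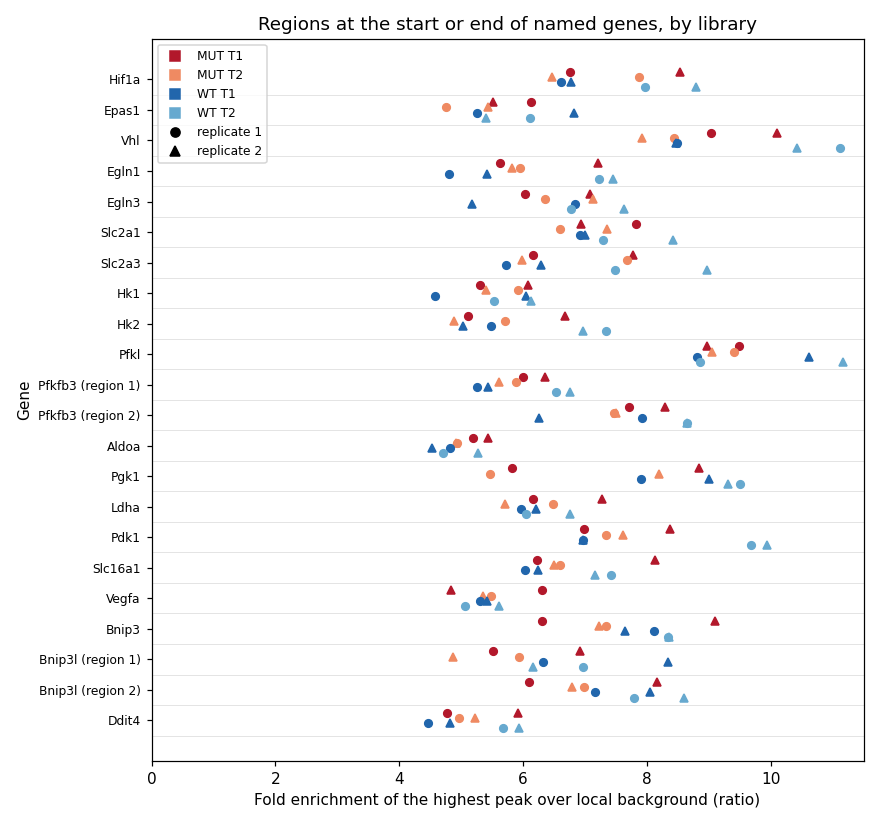
Fold enrichment of the highest peak over local background (horizontal axis, ratio) in each of 8 libraries at the start or end regions of the 20 genes given in full, ordered by role. Colours are the 4 groups and shapes the replicates; red MUT and blue WT points overlap at each of them, from 4.46 at Ddit4 to 11.2 at Pfkl.

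The comparison of MUT with WT asks what the labelled genotype does to these sites within each population. Calls were compared by a rule: regions called in every library of the first group named and in none of the second counted as gained, and those called the other way round as lost. No test was run for single regions, since a peak list gives calls and the caller's own values, and the count of member regions stands beside the share of all 79474 regions that met the same rule. In MUT T1 against WT T1, 2 of 218 member regions were gained (0.917%), against 1.19% of all regions. In the same comparison 2 were lost (0.917%), against 2.13% of all regions. In MUT T2 against WT T2, 8 were gained (3.67%), against 3.82% of all regions, and 1 was lost (0.459%), against 0.429%. These shares were near or below those of all regions, and no result about the members is read from them. Both WT T2 libraries were among the 3 of lowest background, and the part of depth in the 8 gains was not tested.

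No member region was gained in all 4 MUT libraries against all 4 WT libraries, and none was lost, against 0.204% and 0.0528% of all regions. Fold enrichment was compared for the 144 regions called in all 8 libraries. In none of them did the 4 MUT values all lie above the 4 WT values, against 0.552% of all such regions, and in none did they all lie below, against 2.44%. These counts moved with the scale. With each value divided by the median of its library, 2 member regions had every MUT value above every WT value, against 1.74% of all regions. On the scale of summit height over the genome background, 1 region had every MUT value above, against 0.55% of all regions, and 7 had every MUT value below, against 2.95%. No result about the members is read from these counts.

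The comparison of T1 with T2 sets the 2 sorted populations side by side. In MUT T1 against MUT T2, 1 member region was gained, against 0.605% of all regions, and 2 were lost, against 1.74%. In WT T1 against WT T2, 2 were gained, against 3.82% of all regions, and 1 was lost, against 0.605%. No member region was gained or lost in all 4 T1 libraries against all 4 T2 libraries, against 0.0491% gained and 0.0289% lost of all regions. MUT T1 shares its libraries with the MUT against WT comparison, as do the other groups, so 1 region can appear in several counts.

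In all, 14 distinct member regions at 12 genes met the rule in at least 1 comparison of 2 groups (6.42%), against 9.53% of all regions, and none of the 14 was a gene-end region. Among all regions, gene ends made up 6.42% to 11.1% of those gained or lost in the same comparisons of 2 groups. The strongest of the 14 lay 15685 bp beyond the span of Pdk1 (chr2:71919262-71919824). It had fold enrichments of 8.67 and 8.48 in T1 and 6.85 and 12.2 in T2 of MUT mice, against no peak and 4.43 in T1 and no peak in T2 of WT mice. All 4 MUT libraries called it, and every MUT value was above the single WT value. Calls of an equal number of peaks per library, and calls that needed peaks to cover 50% of the region, each made it a gain in all MUT against all WT. Without WT T1 replicate 2, the only WT library with a peak there, it met the rule by construction. The Arnt2 region described below, with the same calls, did so too. These were the 2 member regions gained in that setting, against 0.40% of all regions, and no result is read from them. A weaker Pdk1 region, 6699 bp from its span (chr2:71866027-71867006), had 3.53 and 3.11 in T1 and 4.11 and 3.35 in T2 of MUT mice, against 3.88 and 4.19 in T1 and no peak in T2 of WT mice.

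A region at the neighbouring gene Itga6, which encodes an integrin (chr2:71852136-71852794), had fold enrichments of 10.9 and 14.2 in MUT T1 and 12.8 and 11.9 in MUT T2, and no peak in any WT library. It lay 66.5 kb from the stronger of these Pdk1 regions. Of 37 regions within 200 kb of Pdk1, it was the only 1 gained in all MUT against all WT, and 0 were lost. Whether the Pdk1 region and the Itga6 region are related was not tested.

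The other regions gained in MUT T2 against WT T2 had lower or fewer values. A region inside Hif1a (chr12:73931429-73931708) had no peak and 6.92 in T1 and 6.41 and 6.34 in T2 of MUT mice, and no peak in T1 or T2 of WT mice. It was thus called in 3 MUT libraries and in none of WT. A region 7102 bp from Ldhb, the heart-type lactate dehydrogenase (chr6:142514751-142515368), had 6.59 and 8.10 in T1 and 8.83 and 5.94 in T2 of MUT mice, against 8.82 and 6.22 in T1 and no peak in T2 of WT mice. It was also gained in WT T1 against WT T2, as was the weaker Pdk1 region, so both were missing from WT T2 alone. A region inside Arnt2, a HIF beta subunit of the nervous system (chr7:84386238-84386908), had 4.33 and 5.60 in T1 and 5.22 and 4.39 in T2 of MUT mice, against no peak and 4.66 in T1 and no peak in T2 of WT mice. A region inside Pdk3 (chrX:93808193-93808467) had 4.33 and no peak in T1 and 6.17 and 4.39 in T2 of MUT mice, against no peak and 4.66 in T1 and no peak in T2 of WT mice. Arnt2 and Pdk3 thus had 1 WT library with a peak, the same one as at Pdk1, WT T1 replicate 2.

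Of the 2 remaining gains of MUT T2, a region 32063 bp from Slc16a1 (chr3:104690244-104690806) had 4.56 and no peak in T1 and 4.03 and 4.63 in T2 of MUT mice, and no peak in WT mice. A region 23196 bp from Hk2 (chr6:82797378-82797922) had 3.80 and 4.14 in MUT T2 and no peak elsewhere, so it was also lost in MUT T1 against MUT T2. The 1 loss in MUT T2 against WT T2 lay 13566 bp from Slc16a1 (chr3:104671826-104672231), with 3.19 and no peak in T1 and no peak in T2 of MUT mice, against no peak and 2.58 in T1 and 2.85 and 3.72 in T2 of WT mice.

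In MUT T1 against WT T1, the gained regions lay inside Arnt, the common HIF beta subunit, and Pfkfb4. That of Arnt (chr3:95457576-95458076) had 3.58 and 4.55 in T1 and 4.16 and no peak in T2 of MUT mice, against no peak in T1 and no peak and 7.15 in T2 of WT mice. That of Pfkfb4 (chr9:108995221-108995633) had 2.87 and 3.16 in MUT T1 and no peak in the other 6 libraries, and it was the gain of MUT T1 against MUT T2 too. The lost regions lay 13053 bp from Ddit4 and inside Hk3. That of Ddit4 (chr10:59964539-59965108) had no peak in MUT T1 or MUT T2, 4.20 and 4.33 in WT T1, and no peak and 3.61 in WT T2. That of Hk3 (chr13:55013684-55014027) had no peak in T1 and 4.86 and 4.24 in T2 of MUT mice, against 3.84 and 3.97 in T1 and 5.20 and no peak in T2 of WT mice. It was lost in MUT T1 against MUT T2 as well. The single loss of WT T1 against WT T2 lay 10180 bp from Epas1 (chr17:86743546-86743822), with no peak in T1 and 5.70 and no peak in T2 of MUT mice, against no peak in T1 and 5.51 and 4.49 in T2 of WT mice.

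**Figure D5:**
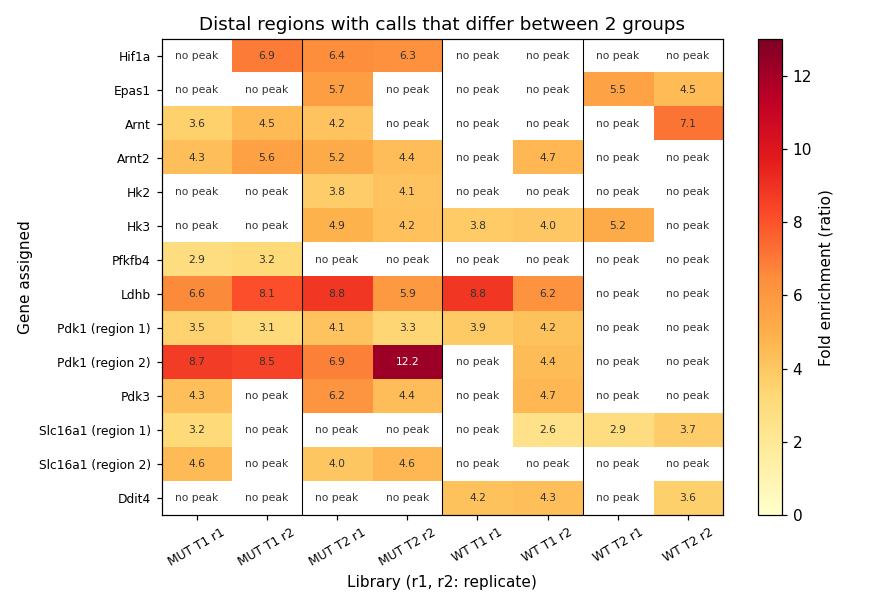
Fold enrichment over local background (colour, ratio, with values printed) in each library (horizontal axis) for the 14 distal regions that were gained or lost in a comparison of 2 groups, by gene. White cells had no peak; the stronger Pdk1 region (region 2) was called in all 4 MUT libraries, at 6.85 to 12.2, and in 1 WT library, at 4.43.

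Fold enrichment was compared between T1 and T2 in the same way. Of the 144 regions called in all 8 libraries, 6 (4.17%) had every T1 value below every T2 value, against 2.96% of all such regions, and 0 had every T1 value above, against 0.244%. The T1 libraries included MUT T1 replicate 2 and the T2 libraries both WT T2 libraries, the 3 of lowest background. When each value was divided by the median of its library, the T1-low count was 3, against 1.27% of all regions, and on the scale of summit height over the genome background it was 3, against 1.82%. The shares of members and of all regions were of similar size, and no result about the members is read from them.

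The lowest ratio of T1 to T2 among the 6 was at a region inside Hk1 (chr10:62293736-62294474), with 6.84 and 7.58 in T1 and 7.87 and 9.02 in T2 of MUT mice, against 7.20 and 6.17 in T1 and 11.2 and 10.9 in T2 of WT mice. Its means were 6.95 ± 0.60 in T1 and 9.74 ± 1.57 in T2 (SD, n = 4 each), a ratio of 0.71. A second region inside Hk1 (chr10:62326799-62328200) averaged 5.82 ± 0.31 in T1 and 6.59 ± 0.44 in T2. The start region of Eno2, the neuronal enolase and the single gene-end region of the 6 (chr6:124768320-124770005), averaged 6.44 ± 0.40 in T1 and 7.85 ± 0.53 in T2. A region inside Egln1 (chr8:124921726-124923068) averaged 5.55 ± 0.72 in T1 and 7.04 ± 0.34 in T2. The region 42308 bp from Vegfa (chr17:45974283-45975088) averaged 7.03 ± 0.50 in T1 and 7.96 ± 0.38 in T2, and the distal Slc16a1 region named above averaged 11.9 ± 1.00 in T1 and 14.4 ± 0.29 in T2 (SD, n = 4 each). The ratios of T1 to T2 over the 6 regions ran from 0.71 to 0.88.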

How the data were processed

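The authors deposited a separate narrowPeak list for every library, so no peaks come from pooled libraries. Per the submitters' processing notes, reads were handled with Bowtie2, SAMtools and MACS2 on build mm10, with no versions given. A shift of cut sites for the transposase is not recorded in the labels. The authors' peak caller wrote, for each deposited peak, a score, a fold enrichment (a ratio over local background), −log10 values of p and q, and the offset of the summit. The lowest deposited −log10 q-value was 3.00. A region missing from a list may be open below that threshold.

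The summit pileup and local background were recovered by solving the MACS2 formulas for the fold enrichment and the p-value. The pileup was whole and returned the deposited value within 0.001 for at least 99.9986% of peaks; 5 to 7 peaks per library, above a −log10 p-value of 300, were left out. The lowest local background of a library was taken as its genome background. Read totals were not used, so depth is relative. Values are given for single libraries. No statistical test was run, since calls and the peak caller's own values are described only, and since the members and lists were chosen with earlier results of these data known.

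Peaks that overlapped by 1 bp were merged, on chromosomes 1 to 19 and X. Gene spans and start windows (250 bases before to 50 after a start) came from RefSeq tables of GRCm38.p6. A gene-end region has a base within 1 kb of either end of the span, and all others are distal. Exons, introns and UTRs were not analysed here, and some genes of the marker and pathway lists are not reported here by name. Values in every library are given for 20 genes listed by role, for the 3 regions of highest and the 3 gene-end regions of lowest mean fold enrichment, and for regions gained or lost. Scripts ran in Python 3.11.15 with numpy 2.4.6, pandas 2.3.3, scipy 1.17.1 and matplotlib 3.10.9 and were tested on simulated data. Alternatives were equal numbers of peaks (62232 per library, the shortest list), a −log10 q-value of at least 5, peaks covering 50% of a region, a 10 kb limit, a 2 kb gene-end limit, scaling to library medians, and leaving out libraries.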

Additional observations from a re-analysis of the deposited data

Results flagged for a closer look

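Over the 34 member measures examined, 136 sets of 4 libraries were checked for a library far from the others, and 6 (4.41%) held one. The sets share libraries and measures, and the rate that chance alone would give was not computed. At the Hif1a start region MUT T1 replicate 2 had a fold enrichment of 8.54, with the other T1 libraries at 6.61 to 6.77. The same library stood apart from the other T1 libraries at the start of Pdk1, with 8.38 and the others at 6.97 to 6.99, and at the start of Slc16a1, with 8.14 and the others at 6.03 to 6.24. MUT T1 replicate 2 had the lowest genome background of the T1 libraries (2.03 fragments), and the part of depth was not tested. At the start of Slc2a1, MUT T1 replicate 1 had 7.82, with the other T1 libraries at 6.92 to 7.0. At the region 42308 bp from Vegfa, MUT T2 replicate 1 had 8.53, with the other T2 libraries at 7.72 to 7.83. WT T2 replicate 1 had 42 gene-end member regions called, and the other T2 libraries 41 each.

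At 5 of the regions examined both MUT libraries lay above both WT libraries in T1 and below both in T2. Over all 144 member regions called in every library, 8 (5.56%) had this pattern or its opposite, against 8.21% of all 44583 regions, and no result about the members is read from it. The difference between T1 and T2 was not tested. At the Egln1 start the mean fold enrichment of MUT minus WT was 1.31 in T1 and -1.46 in T2. At the Pdk1 start it was 0.71 in T1 and -2.33 in T2. The Vhl start had 1.09 and -2.60, the inner Pfkfb3 start 0.83 and -0.90, and the Eno2 start 0.65 and -0.74, in T1 and in T2. The median fold enrichment of distal member regions followed the same pattern, with 0.34 in T1 and -0.59 in T2. WT T2 held 2 of the 3 libraries of lowest background and MUT T1 the third, and the part of depth in this pattern was not tested.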

How the results depend on the processing

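No paired analysis was possible because the results come from counts and values with no test, and nothing in the labels ties the replicate numbers of different groups. Of 88 values recomputed with all libraries or without the 3 of lowest background, 58 stayed and 30 moved. A count stayed if it was within 1.5 times of the main count. A gene-end or distal share stayed if it was within the binomial confidence interval of the main share. The causes were not tested beyond what each setting does by construction. Each count of member regions is followed by the share of all regions that met the same rule, and no result about the members is read from these counts.

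Shares in brackets are those of all regions and not of the members. Equal numbers of peaks left 196 member regions, and the stricter q-value left 217. With equal numbers of peaks, MUT T2 against WT T2 gave 4 gains (1.88%) and 2 losses (1.64%). In that setting WT T1 against WT T2 gave 4 losses (1.72%), and all MUT against all WT gave 1 gain (0.166%), at Pdk1. At the stricter q-value, MUT T1 against WT T1 gave 1 gain (1.12%), MUT T1 against MUT T2 gave 1 loss (1.75%), and MUT T2 against WT T2 and WT T1 against WT T2 gave 0 losses each (0.404% and 0.571%). With peaks covering 50% of a region, MUT T1 against MUT T2 gave 2 gains (0.814%) and 5 losses (2.30%), WT T1 against WT T2 gave 5 gains (6.52%), and all MUT against all WT gave 1 gain (0.252%), at Pdk1. With a 10 kb limit, which left 166 member regions, MUT T2 against WT T2 gave 5 gains (3.73%) and 0 losses (0.413%), MUT T1 against WT T1 gave 1 loss (2.17%), MUT T1 against MUT T2 gave 1 loss (1.77%) and WT T1 against WT T2 gave 0 losses (0.599%). Without the 3 libraries of lowest background, all MUT against all WT gave 2 gains (1.23%) and 1 loss (0.88%), and all T1 against all T2 gave 2 losses (0.779%).

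Fold enrichment without overlap was scaled to library medians in 1 alternative, which gave 2 regions higher in MUT than WT (1.74%), and 2 higher (1.42%) and 3 lower (1.27%) in T1 than T2. Further alternatives were chosen after seeing the data. Summit height over the genome background gave 1 region higher (0.55%) and 7 lower (2.95%) in MUT than WT, and 3 lower (1.82%) in T1 than T2. Fold enrichment without the 3 libraries of lowest background gave 18 higher (10.1%) and 10 lower (10%) in MUT than WT, and 8 higher (5.29%) and 25 lower (16.3%) in T1 than T2. Counting a start window as a gene end gave 39 members with a gene-end region in every library, against 35 in the main count. The gene-end share was then 90.2% and the distal share 58.7%, and all of these stayed by the rules above.

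Leaving out 1 library requires fewer calls and so raises most counts. Gains and losses ran from 3 to 13 and 3 to 14 in MUT T1 against WT T1, where MUT T1 replicate 2 left out gave the 13 gains (5.52%) and MUT T1 replicate 1 left out the 14 losses (9.05%). They ran from 11 to 16 and 3 to 6 in MUT T2 against WT T2, with 16 gains without MUT T2 replicate 2 (9.31%) or without WT T2 replicate 1 (9.10%) and 6 losses without MUT T2 replicate 1 (1.73%). They ran from 1 to 7 and 3 to 17 in MUT T1 against MUT T2, with 7 gains without MUT T1 replicate 2 (4.39%) and 17 losses without MUT T1 replicate 1 (8.32%). They ran from 6 to 14 and 4 to 5 in WT T1 against WT T2, with 14 gains without WT T1 replicate 1 (8.18%). They ran from 0 to 2 and 0 to 1 in all MUT against all WT, with 2 gains without WT T1 replicate 2 (0.40%) and 1 loss without WT T2 replicate 1 (0.126%), and from 0 to 0 and 0 to 1 in all T1 against all T2, with 1 loss without MUT T2 replicate 2 (0.0629%). Regions higher and lower without overlap ran from 0 to 4 and 0 to 7 in MUT against WT, with 4 without WT T2 replicate 2 (1.75%) and 7 without WT T1 replicate 2 (5.5%). They ran from 0 to 2 and 6 to 20 in T1 against T2, with 20 lower without MUT T1 replicate 2 (11.6%). The number of regions (218), of members with a gene-end region in every library (35) and the gene-end share (88.6%) did not move, and the distal share ran from 60.3% to 63.2%.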

Other observations

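Another 40 genes of these pathways, listed with earlier results known, had 187 regions. All 8 libraries called 107 of these (57.2%), against 56.1% of all regions at protein-coding genes. A gene-end region called in all 8 was present at 34 of the 40, against 57.6% of all protein-coding genes. A region 39733 bp from P4ha2, a collagen prolyl hydroxylase gene induced by HIF (chr11:54171195-54171608), was called in all 4 MUT libraries and in no WT library, against 0.204% of all regions. Its fold enrichments were 6.16 and 4.61 in MUT T1 and 6.17 and 5.36 in MUT T2. Their mean of 5.58 was below the median of 7.66 for regions called in all 8 libraries at all genes. It was above the median of 4.59 for regions not called in all 8, the class this region belongs to. A gene-end region of Siah1a, a ubiquitin ligase gene (chr8:86719485-86719926), had no peak in T1 and 5.70 and 5.36 in T2 of MUT mice, against 3.85 and 5.72 in T1 and 4.74 and no peak in T2 of WT mice. It was lost in MUT T1 against WT T1 and against MUT T2.

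A region inside Gbe1, the glycogen branching enzyme gene (chr16:70506227-70506925), had 7.30 and 7.25 in T1 and 9.73 and 7.31 in T2 of MUT mice, against 6.37 and 6.76 in T1 and no peak in T2 of WT mice. Like the distal Ldhb region, it was missing from both WT T2 libraries and called in the other 6. Both WT T2 libraries were among the 3 of lowest background, and the part of depth in this was not tested.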
